A study of Mus musculus with 3 samples.

Results

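Urocortin 3 (gene Ucn3, ENSMUSG00000044988.7, chromosome 13, 3940688 to 3945349, minus strand, GRCm38) is a peptide hormone that mature mouse beta cells store and release together with insulin. It acts on the receptor Crhr2 of neighbouring delta cells, which answer by releasing somatostatin, the hormone that restrains insulin secretion. Ucn3 comes on late in the maturation of beta cells, and adult islets are known to hold a small number of insulin-rich cells without it, many of them at the islet edge, that have been described as immature or "virgin" beta cells. The cells described here are beta cells in which no Ucn3 transcript was counted. They were chosen by that reading, so Ucn3, the insulin genes Ins1 and Ins2, the other hormone genes Gcg, Ppy and Sst, the depth of a cell and its mitochondrial share are given below as a description, with no test.

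A cell counted as a beta cell with at least 500 genes and 10000 UMIs (counted RNA molecules), at most 20% of UMIs from mitochondrial genes, at least 3000 UMIs of Ins1 and Ins2 together per 10000 UMIs of the cell (CP10K, the unit of all levels below), and less than 200 CP10K of Gcg, 200 of Ppy and 100 of Sst. By this rule 6729 of the 14188 distinct cells of the series were beta cells, and 478 of them, or 7.10% (exact 95% interval 6.50% to 7.74%), had a Ucn3 count of 0. The cells came from islets of mice that carry Ngn3-CreERT:R26-CAG-TdTomato, taken 10 days after tamoxifen, in which cells with an active Neurog3 gene (also called Ngn3) and their descendants should gain a red reporter. All 3 samples, from 6 mice, are of 1 group, replicates 2 and 3 each pool 2 mice, and no sample lacks Cre or tamoxifen. Age, sex and strain background were not given in the labels. Replicate 1 is called library 1, and replicates 2 and 3 share 1 deposited table, the joint table. Its cells carry 3 barcode suffixes (blocks 1 to 3) that no label ties to a sample, so comparisons have n = 2 libraries, and the blocks serve only to show values and directions. The labels do not say whether islets were prepared separately for each sample, so the spread between these libraries may be technical in part. The p-values rest on that spread, which limma took mostly from all genes tested and little from the gene itself.

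Library 1 and the joint table held 1146 and 13042 cells, of which 690 and 7511 passed the limits on genes, UMIs and mitochondrial share. Library 1 and the blocks shared 0 to 6 barcodes with each other, and no shared barcode had identical counts. Ins1 and Ins2, which the rule required to be high, together took a median of 6352 CP10K in the Ucn3-negative cells of library 1 and 6613 CP10K in those of the joint table. In the Ucn3-positive beta cells the medians were 6510 and 6662 CP10K, and the ranges overlapped over most of their length. Iapp, the amyloid peptide co-released with insulin, had a mean of 322.7 CP10K in the Ucn3-negative cells of library 1 and 310.4 CP10K in those of the joint table. The beta cell transcription factor Nkx6-1 was at a mean of 1.79 and 1.77 CP10K.

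In library 1, 23 of 460 beta cells had no Ucn3 UMI, a share of 5.0% (3.2% to 7.41%). Of 6269 beta cells in the joint table, none was counted in 455, which is 7.26% (6.63% to 7.93%). Blocks 1, 2 and 3 of that table gave 7.57%, 7.29% and 6.81%, with intervals that overlap each other and that of library 1. Beta cells with Ucn3 had a median of 7 Ucn3 UMIs in library 1 and of 4 elsewhere, and a highest count of 31, and 775 of the 6251 positive cells had a single UMI. The count is therefore low even in positive cells, and the share of negative cells depended on how deeply a cell was read.

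The share was 13.1% (11.2% to 15.2%) in beta cells of 10000 to 15000 UMIs, 9.36% at 15000 to 20000 and 6.14% at 20000 to 30000. It was 2.67% at 30000 to 50000 UMIs and 0.629% (0.0763% to 2.25%), or 2 of 318 cells, at 50000 UMIs or more. In library 1, 0 of the 133 cells at that depth lacked Ucn3. Thinned to 10000 UMIs each, 22.6% (21.6% to 23.7%) of beta cells had no Ucn3 UMI, with 27.4% in library 1 and 22.3% in the other table. A count of 0 in a cell of the median depth of the Ucn3-negative cells allows up to 3 counts, which is 0.899 CP10K in library 1 and 1.76 CP10K in the joint table. The mean of all beta cells was 1.72 and 1.85 CP10K, so a count of 0 marks cells whose Ucn3 was low or missed, and it does not show for a single cell that the gene was silent. These intervals and limits cover counting error only.

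**Figure D1:**
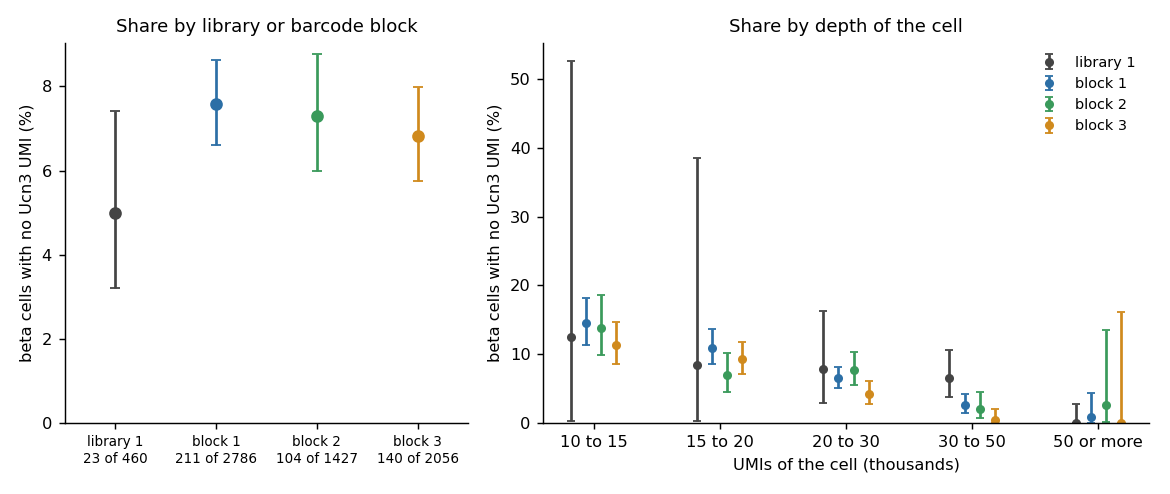
Share of beta cells with no Ucn3 UMI, in percent, by library or barcode block (left) and by the UMI count of the cell (right), with exact 95% intervals. The share falls from 13.1% below 15000 UMIs to 0.629% at 50000 UMIs or more over both tables, and the first 2 points of library 1 rest on 8 and 12 cells.

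Ucn3 was also counted in a few cells that should lack it. In cells that were not endocrine, 3.39% (0.931% to 8.45%) had a Ucn3 UMI in library 1 at a median of 8412 UMIs, and 6.08% (4.36% to 8.22%) in the joint table at 3907 UMIs. At the edges of the rule, 2 of the 478 cells had Ins1 and Ins2 between 3000 and 3500 CP10K, and 0 further Ucn3-negative cells lay between 2500 and 3000. With 10000 to 11000 UMIs there were 28, and 31 cells that met every other limit lay just outside, between 9000 and 10000 UMIs. With Ppy between 100 and 200 CP10K there were 4 cells, and with Sst between 50 and 100 there were 2.

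To compare cells of like depth, each Ucn3-negative cell was set beside the Ucn3-positive beta cell of its own block nearest in total UMIs. The median depth was then 33379 UMIs against 33425 for library 1 and 17029 against 17025 for the joint table, where unmatched positive cells had 40622 and 21714.5. Of the 478 matched cells, 68 had a single Ucn3 UMI. The mean Ucn3 level of the matched cells was 1.67 CP10K in library 1 and 2.29 CP10K in the joint table. Over all beta cells it was 1.72 and 1.85 CP10K. Mean levels of the 2 sides were compared with limma on log2(CP10K + 0.05) in both tables, with the table as a block. A fold change on this scale understates the change of low genes. The 6 genes named in the rule (Ucn3, Ins1, Ins2, Gcg, Ppy and Sst) were not tested. Of 5539 genes tested, 11 rose and 7 fell at an adjusted p under 0.05, which is 0.199% and 0.126% (0.325% together), and 327 had an unadjusted p under 0.05. Of the 7, 6 are mitochondrially encoded. The rule limited their summed share, so they are given below as a description and their calls are not read. All 18 kept 1 direction across both tables and across blocks 1 to 3, as 20.9% of all genes tested did.

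This fit has 1 residual degree of freedom and a prior of 10.3 degrees of freedom drawn from all genes tested. In some alternatives, such as 3 positive cells per negative cell, the prior was infinite, so a gene's own spread did not enter. The number of calls went from 0 to 50 genes that rose and from 0 to 58 that fell over the alternatives in limma. Without block 2, 2 rose and 3 fell. In edgeR's quasi-likelihood test on summed UMIs, 49 genes rose and 32 fell (0.903% of 8967), all 18 among them, and in DESeq2 2 rose and 1 fell (0.0335%). The genes that rose each passed in 15 to 21 of 22 or 23 alternative fits and Atp2a2, which fell, in 17 of 23. These fits reuse largely the same cells and differ in the prior. Counts of passes, here and below, are therefore a description and no measure of replication.

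**Figure D2:**
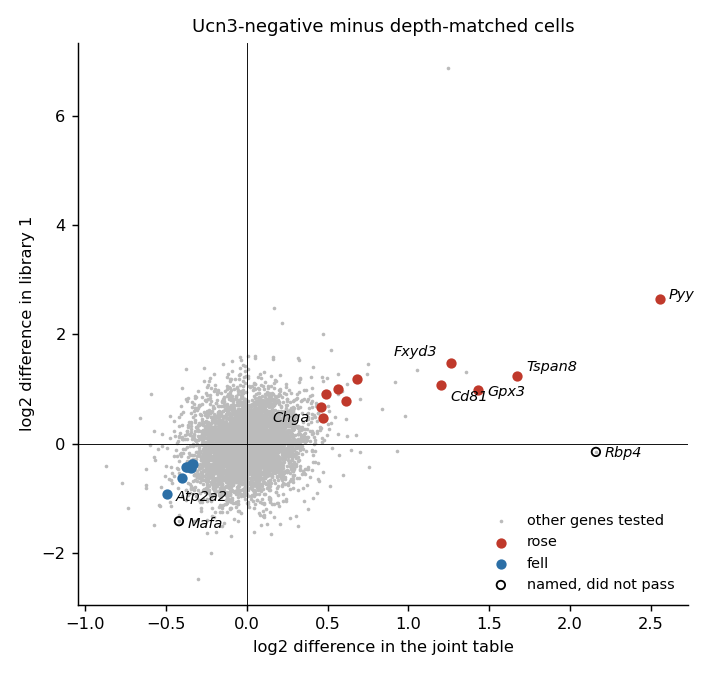
Difference between Ucn3-negative and depth-matched Ucn3-positive beta cells, as log2 of mean CP10K + 0.05, for each of 5539 genes in the joint table (x axis) and in library 1 (y axis). The 11 genes that rose and the 7 that fell lie on 1 side of 0 in both tables, while Rbp4 is far from 0 in the joint table alone.

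The largest rise was that of peptide YY (Pyy, ENSMUSG00000017311.15, chromosome 11, 102106676 to 102107832, minus strand, GRCm38). Pyy is a gut and islet hormone of the same family as pancreatic polypeptide, whose gene Ppy lies next to it on the same strand (102099930 to 102101319). In library 1 the mean Pyy level was 11.6 CP10K in Ucn3-negative and 1.66 CP10K in matched cells. In block 1 it was 9.07 against 1.04 CP10K, in block 2 2.47 against 0.628 and in block 3 1.30 against 0.728. Every unit was higher on the negative side, by amounts that ranged from 3.09 on the log2 scale in block 1 to 0.79 in block 3. The difference over both tables was 2.60 (SE 0.098, adjusted p = 9.08e-08 in limma), and 1.15 in cells of at least 20000 UMIs (adjusted p = 3.64e-05 in limma).

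Ppy, which the rule held under 200 CP10K and which was not tested, had a mean of 11.7 CP10K in Ucn3-negative and 2.43 CP10K in matched cells of library 1, and of 4.41 against 1.90 CP10K in the other table. Its medians were close on both sides, at 0.689 against 0.512 and 1.69 against 1.64 CP10K. Sst had means of 3.43 against 4.33 and of 0.850 against 0.537 CP10K, and Gcg means of 1.93 against 2.05 and of 3.11 against 3.13 CP10K. The mean of Ppy was thus higher on the negative side in both tables, while that of Sst was lower in library 1 and higher in the joint table. The Sst means of library 1 came largely from 1 cell on each side, at 72.7 CP10K in negative and 93.7 CP10K in matched cells. The medians of Sst were 0 against 0.230 CP10K there and 0.454 against 0.417 CP10K in the joint table, so no direction is read from its means.

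This rise came from a minority of cells. The median Pyy level of the 455 negative cells of the joint table was 0.782 CP10K, against 0.699 CP10K in matched cells, while the highest was 335.7 CP10K. In library 1 a single cell held 72.8% of the summed Pyy level of the 23. Cells at 5 CP10K or more, a limit set after the values were seen, are called Pyy-rich here. They made up 42 of the 478 Ucn3-negative cells, or 8.79% (6.41% to 11.7%), against 3 of the 478 matched cells (0.628%, 0.130% to 1.82%) and 104 of all 6251 Ucn3-positive beta cells (1.66%). By unit there were 3 of 23 in library 1, 25 of 211 in block 1, 8 of 104 in block 2 and 6 of 140 in block 3.

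In the Pyy-rich Ucn3-negative cells Ins1 and Ins2 together, held at 3000 CP10K or more by the rule, ranged from 3217 to 5404 CP10K in the 3 of library 1 and from 3725 to 7341 CP10K, with a median of 5835, in the 39 of the joint table. The medians of the Ucn3-positive beta cells given above lie higher. Nkx6-1 was seen in 3 of 3 and in 92.3% of the 39 (93.6% of matched cells), and Pdx1, the factor that specifies the pancreas and keeps beta cells in their state, in 3 of 3 and in 66.7% (69.9% of matched cells).

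Slc2a2, the glucose transporter GLUT2, had a mean of 1.24 CP10K in the 39, 2.90 CP10K in the other 416 negative cells and 3.51 CP10K in matched cells of the joint table. G6pc2, a glucose-6-phosphatase that sets the point at which glucose triggers secretion, had means of 1.89, 4.11 and 4.73 CP10K in the same order. Both were thus lowest in the Pyy-rich cells. Hhex, the defining transcription factor of delta cells, was at 0 in all 23 negative cells of library 1 and seen in 2 of 23 matched cells there, and in the joint table it was seen in 5.13% of the 39, 0.962% of the 416 and 0% of matched cells. Rbp4, a retinol carrier on the delta cell list, was seen in 51.3%, 16.3% and 5.71%, and Etv1, on the alpha and PP lists, in 33.3%, 16.3% and 17.4%.

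Their ratio of Pyy to Ppy UMIs was 1.62 in library 1 and 1.91 in the joint table. Cells rich in Ppy and poor in insulin had a ratio of 0.400 and 0.280, and cells rich in Sst and poor in insulin one of 8.20 and 6.44. Pyy-rich Ucn3-positive beta cells had ratios of 1.01 and 1.31. The limit on Ppy in the rule and the limit on Pyy that picked these cells both bear on the ratio, so it is given as a description. Scrublet, which scores cells for likeness to simulated pairs of cells, put 7 of the 42 among the highest scores, against 19 of all 478 negative and 5 of the 478 matched cells. The part of mixed droplets in the Pyy-rich cells was not tested.

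Mafa (chromosome 15, 75745490 to 75748228, minus strand), a transcription factor that turns on insulin and secretion genes as beta cells mature, was low in the same cells. It was at 0 in all 3 Pyy-rich cells of library 1, where the other 20 negative cells all had it. In the joint table it was seen in 21 of the 39 Pyy-rich cells (53.8%, 37.2% to 69.9%), in 382 of the other 416 negative cells (91.8%, 88.8% to 94.3%) and in 448 of 455 matched cells (98.5%, 96.9% to 99.4%). Of the 55 negative cells without Mafa over both tables (11.5%, 8.79% to 14.7%), 21 were Pyy-rich. The matched side had 7 cells without Mafa (1.46%, 0.591% to 2.99%).

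**Figure D3:**
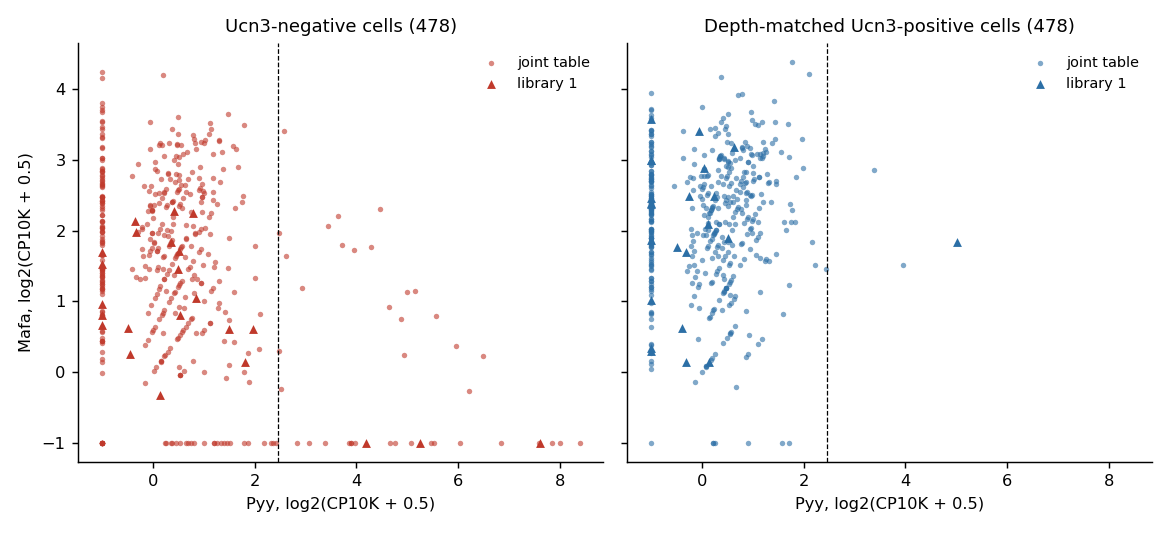
Level of Mafa against that of Pyy, each as log2(CP10K + 0.5), in the 478 Ucn3-negative cells (left) and the 478 depth-matched cells (right). Triangles are library 1, circles the joint table, the dashed line marks a Pyy level of 5 CP10K, and cells on the lower edge have no Mafa UMI. To the right of the line lie 42 negative and 3 matched cells.

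Over all cells the mean Mafa level was 1.76 CP10K in negative and 4.39 CP10K in matched cells of library 1. In blocks 1, 2 and 3 it was 3.49 against 4.94, 3.36 against 4.84 and 3.78 against 4.68 CP10K. The negative side was lower in all 4 units, and the gap was wider in library 1 (-1.42 on the log2 scale) than in the joint table (-0.42). The difference over both was -0.92 (SE 0.177, adjusted p = 0.067 in limma), so Mafa did not pass. It passed in 16 of 23 alternative fits, and without the Pyy-rich cells it was -0.73. Thinned to 10000 UMIs, Mafa was seen in 82.6% (78.8% to 86.0%) of negative and 96.0% (93.8% to 97.6%) of matched cells of the joint table, while in library 1 it was seen in 19 and 18 of 23 cells, no lower on the negative side.

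Of 16 transcription factors listed as beta cell identity genes, Mafa included, 12 passed the filter on low values and 0 changed, with a median difference of -0.02 beside -0.01 over all genes tested. Nkx6-1 differed by -0.01, Pdx1 by -0.10 and Isl1, a factor shared by all islet hormone cells, by 0.03. Neurod1, another such factor, differed by 0.17. The largest positive difference was 0.31, and after Mafa the largest negative one was that of Foxa2 (-0.34).

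Genes that let beta cells sense glucose and couple it to secretion lay mostly below the matched level, though none passed. Of 18 such genes 17 were tested, 14 had a negative difference and 3 a positive one, 8 were lower in all units, and the median was -0.33. Of all genes tested, 51.2% had a negative difference and 10.3% were lower in all units, and no test of the list was made. Slc2a2 was at 2.42 CP10K in negative and 3.55 CP10K in matched cells of library 1, and at 2.69 against 3.61, 2.55 against 3.23 and 3.02 against 3.57 CP10K in the 3 blocks. It was lower in all 4 units, with a difference of -0.50 (SE 0.111, adjusted p = 0.152 in limma), and passed in 14 of 23 alternative fits.

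G6pc2 was at 3.81 against 4.81 CP10K in library 1 and at 3.92 against 4.73 elsewhere, a difference of -0.35 (adjusted p = 0.366 in limma). Sytl4, a granule docking protein, differed by -0.62 (adjusted p = 0.224) and Trpm5, a cation channel that helps to depolarise beta cells, by -0.57 (adjusted p = 0.239), both by limma. Of 8 tested genes of thyroid and steroid maturation signals, Sytl4 among them, 0 changed, 7 lay below 0 and the median was -0.34.

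The granule genes went the other way in part. Chromogranin A (Chga, ENSMUSG00000021194.6, chromosome 12), a scaffold protein of hormone granules, was at a mean of 57.1 CP10K in negative and 37.7 CP10K in matched cells of library 1. In blocks 1, 2 and 3 it was 43.2 against 30.7, 40.5 against 29.8 and 39.0 against 29.7 CP10K. Chga rose by 0.47 (SE 0.064, adjusted p = 0.028 in limma). After the columns were centred on their median, the difference was nearly the same in both tables. Before centring it was wider in library 1, as the levels above show.

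Chga was the only 1 of 19 granule and processing genes tested that passed, where 0.325% of all genes tested did. Its relative Chgb lay at 12.2 against 5.61 CP10K in library 1 and at 4.07 against 3.21 elsewhere (0.67, adjusted p = 0.067 in limma). The convertases Pcsk1 and Pcsk2, which cut proinsulin, differed by 0.23 and 0.04, and Ero1lb, the oxidase that helps proinsulin to fold, by -0.21 (adjusted p = 0.769 in limma). The median of the list was 0.11. Resp18, a protein of endocrine granules outside that list, rose by 0.56 (SE 0.087, adjusted p = 0.028 in limma), from 6.55 to 11.4 CP10K in library 1 and from 5.69 to 7.73 in the joint table.

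**Figure D4:**
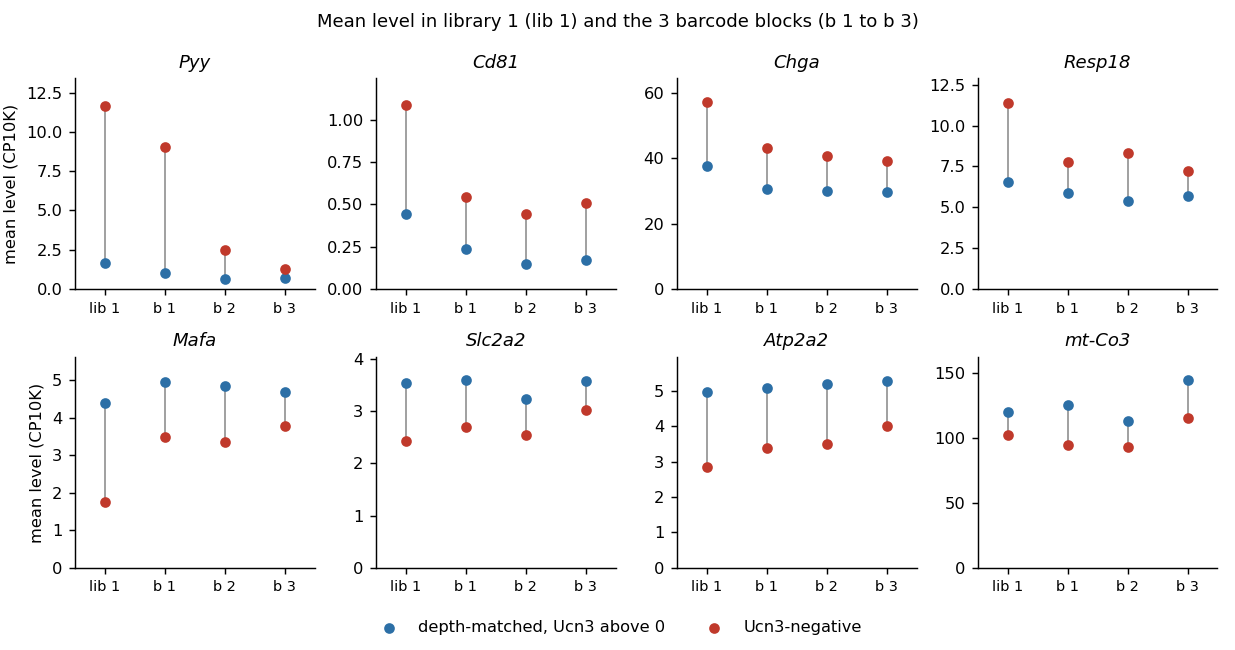
Mean level in CP10K of 8 genes in Ucn3-negative (red) and depth-matched Ucn3-positive beta cells (blue), for library 1 (lib 1) and the 3 barcode blocks of the joint table (b 1 to b 3). Pyy, Cd81, Chga and Resp18 lie higher and Mafa, Slc2a2, Atp2a2 and mt-Co3 lower on the negative side in all 4, and Mafa and Slc2a2 did not pass the test.

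Genes known from immature or dedifferentiated beta cells were mostly too low to test. Of 27 listed, 25 were in both tables and 3 passed the filter on low values. Cd81 (ENSMUSG00000037706.17, chromosome 7, 143052739 to 143067934, plus strand), a surface protein used as a marker of immature beta cells, was the 1 of these that rose. Its mean was 1.08 CP10K in negative and 0.442 CP10K in matched cells of library 1, and 0.543 against 0.234, 0.440 against 0.149 and 0.507 against 0.174 CP10K in the 3 blocks. Cd81 rose by 1.14 (SE 0.165, adjusted p = 0.028 in limma), and its mean was higher on the negative side in all 4 units. In library 1 the 20 negative cells that were not Pyy-rich had a median of 0.104 and a highest value of 9.57 CP10K. The matched cells there had 0.224 and 2.31 CP10K. Cd81 was seen in 50% of those 20 and 52.2% of the matched cells. In the joint table it was seen in 26.9% of the other 416 and 16.7% of matched cells.

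Thinned to 10000 UMIs, Cd81 was seen in 24.2% (20.3% to 28.4%) of negative and 13.4% (10.4% to 16.9%) of matched cells of the joint table, and in 9 against 6 of 23 cells of library 1. Cd81 was also high in other kinds of islet cell. Its mean was 2.11 and 2.42 CP10K in Gcg-rich cells, 3.17 and 2.44 in Sst-rich cells, 3.44 and 2.19 in Ppy-rich cells, and 10.1 and 12.3 in cells that were not endocrine, for library 1 and the joint table in turn.

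Aldh1a3, an enzyme of dedifferentiated beta cells in diabetes, had a UMI in 0 of 23 cells on each side in library 1, and in 2.86% against 2.42% of cells in the joint table. Rbp4 was at 0.512 against 0.522 CP10K in library 1 and at 0.352 against 0.0412 in the joint table. The difference was 1.0 (adjusted p = 0.769 in limma), and the means of the 2 tables did not show 1 direction. The matched mean of library 1 came largely from 1 cell at 10.4 CP10K. After thinning, Rbp4 was seen there in 7 of 23 negative and 4 of 23 matched cells, with intervals that overlap. In the joint table it was then seen in 14.9% against 3.96%. Of 21 genes disallowed in beta cells, such as the lactate dehydrogenase gene Ldha, 0 passed the filter.

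Neurog3, the factor of endocrine progenitors whose regulatory sequence drives the Cre of these mice, had a UMI in 0 of 23 Ucn3-negative cells of library 1, a count that allows a share of up to 14.8% by the exact interval. In the joint table it was seen in 10 of 455 (2.20%, 1.06% to 4.0%), against 3 of 455 matched cells (0.659%, 0.136% to 1.91%) and 53 of all 5814 positive beta cells (0.912%, 0.684% to 1.19%). Of the 10 cells, 6 were among the 39 Pyy-rich cells (15.4%, 5.86% to 30.5%) and 4 among the other 416 (0.962%, 0.263% to 2.44%). In Sst-rich cells of library 1 the share was 38.9%, and it was 27.5% in those of the joint table. In cells that were not endocrine it was 0 of 118 and 0 of 641. Cells are not replicates, and no test was made of these shares.

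The reporter row TdTomato had a UMI in 3 of the 23 negative cells of library 1 (13.0%, 2.78% to 33.6%), 2 of them Pyy-rich, against 0 of 23 matched and 7 of all 437 positive beta cells (1.60%, 0.646% to 3.27%). Only 16 TdTomato UMIs were counted in that library. The joint table's row of that name was seen in 35.4% of negative and 33.2% of matched cells. There it stands between Thumpd3 and Setd5, where library 1 lists Gt(ROSA)26Sor, and no row of the joint table carries that name. In library 1 Gt(ROSA)26Sor was seen in 65.9% of beta cells, so what the joint row counts is uncertain, and no reporter share is read from it.

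Among the other genes that rose, Igfbp7, a secreted protein that binds growth factors, rose by 0.93, from 0.611 CP10K on the matched side to 1.59 on the negative side in library 1 and from 0.505 to 0.828 in the joint table. Cst3, the secreted protease inhibitor cystatin C, rose by 0.70 (2.39 to 4.98 and 2.61 to 3.64 CP10K). Txnip, which binds thioredoxin and follows glucose in beta cells, rose by 0.69 (1.30 to 2.47 and 1.13 to 1.73 CP10K), and the linker histone gene Hist1h1c by 0.79 (1.02 to 2.30 and 0.821 to 1.22 CP10K). Their adjusted p-values in limma were 0.036, 0.034, 0.036 and 0.041 in that order, and each was higher on the negative side in all 4 units. In library 1 the highest negative cell held 11.4 CP10K of Igfbp7 and 31.0 CP10K of Cst3, against 2.23 and 4.24 CP10K on the matched side. The 20 negative cells there that were not Pyy-rich had medians of 0.853 and 2.84 CP10K, against 0.580 and 2.46 CP10K in matched cells. In cells of at least 20000 UMIs Txnip differed by 0.29 and did not pass (adjusted p = 0.513 in limma).

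Tspan8, Fxyd3 and Gpx3 also rose, by 1.45, 1.37 and 1.20 on the log2 scale. All 3 were under the level of 0.5 CP10K set for named genes in at least 1 table and were singled out after their values were seen. Tspan8, a membrane tetraspanin, went from 0.165 to 0.503 CP10K in library 1 and from 0.0624 to 0.303 in the joint table. Fxyd3, a regulator of the sodium pump, went from 0.0503 to 0.255 and from 0.0964 to 0.297, and Gpx3, a secreted glutathione peroxidase, from 0.226 to 0.544 and from 0.0928 to 0.330 CP10K. In cells of at least 20000 UMIs Gpx3 differed by 0.81 and did not pass (adjusted p = 0.168 in limma).

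All 3 had higher means in Gcg-rich, Sst-rich and Ppy-rich cells than in the Ucn3-positive beta cells of the same table. Tspan8 had a mean of 8.38 and 5.33 CP10K in Ppy-rich and 4.35 and 4.22 CP10K in Sst-rich cells. Fxyd3 had 2.33 and 1.55 CP10K in Sst-rich cells, and Gpx3 8.25 and 13.0 CP10K in Gcg-rich cells. Beside them, the alpha cell markers without Gcg summed to a mean of 11.0 CP10K in negative and 11.2 CP10K in matched cells of library 1, and to 12.3 against 12.7 CP10K in the joint table. The delta cell markers without Sst summed to 1.70 against 1.74 and to 1.78 against 1.20 CP10K. The part of RNA from other hormone cells in these rises was not tested.

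Markers of cells that are not endocrine had a median sum of 0 on both sides for the endothelial, stromal and Schwann lists in both tables, of which no gene passed the filter. Single negative cells were rich in them, up to 82.8 CP10K of endothelial, 45.4 of immune and 42.0 of stromal markers in the joint table, and up to 38.3 of stromal and 26 of Schwann markers in library 1. The highest matched cells held 3.97, 3.73 and 15.4 CP10K in the joint table, in that order, and 0.38 and 0.39 CP10K in library 1. The acinar sum was 3.59 against 3.54 CP10K at the median in the joint table and 0 on both sides in library 1. Of the 11 acinar genes tested 0 changed.

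Of genes outside the rule, 1 fell. Atp2a2, the pump SERCA2 that fills the endoplasmic reticulum with calcium, was at 2.85 CP10K in negative and 4.97 CP10K in matched cells of library 1. In the 3 blocks it was 3.39 against 5.08, 3.49 against 5.18 and 4.0 against 5.29 CP10K. Atp2a2 fell by 0.71 on the log2 scale (SE 0.112, adjusted p = 0.031 in limma).

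The mitochondrially encoded genes make subunits of the respiratory chain. Of 13, 12 had a negative difference, and those of mt-Nd2, mt-Nd4, mt-Co2, mt-Atp6, mt-Cytb and mt-Co3 lay between -0.52 and -0.35 on the log2 scale. The cytochrome oxidase gene mt-Co3 was at 102.1 CP10K in negative and 120.5 CP10K in matched cells of library 1, and at 94.7 against 126, 93.1 against 113 and 116 against 145 CP10K in the blocks. The mitochondrial share of a cell was limited by the rule on both sides, with a median of 3.7% in negative and 4.1% in matched cells of library 1 and 3.5% against 5.1% in the joint table. Over all Ucn3-positive beta cells, matched or not, the median was 4.4% in library 1 and 4.4% in the joint table. These values are a description, since that share is part of the rule. Of 23 nuclear genes of oxidative phosphorylation 0 changed, with a median of -0.03.

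Of 25 genes of endoplasmic reticulum chaperones and the unfolded protein response 0 passed (median -0.003). Of 17 genes of the Atf4 stress response 0 passed, and 13 lay below 0 (median -0.19). The count was also 0 for 15 immediate early genes, 8 cell cycle genes and 7 interferon genes. Over all genes tested 0.325% were called, so a count of 0 in these or earlier lists does not show that their genes were unchanged. Of 15 antioxidant genes 2 rose, Gpx3 and Txnip, and Txnip acts against thioredoxin rather than as an antioxidant. Of 88 ribosomal protein genes 0 changed. Among genes that filled the places left by those past the threshold, Hist1h2bc (0.65), Gadd45g (0.60) and Fxyd6 (0.59) had positive and Ttc28 (-1.03), the heat shock genes Dnajb1 (-0.86) and Hspa1a (-0.69) and Atf5 (-0.64) negative differences in all units, with adjusted p of 0.067 to 0.385 in limma.

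Without the Pyy-rich cells on both sides, limma called 0 genes of 5466 (0%), with 178 at an unadjusted p under 0.05, while edgeR called 22 higher and 10 lower. Chga differed by 0.45 in place of 0.47, Cd81 by 1.02 in place of 1.14, Tspan8 by 1.41 in place of 1.45 and Atp2a2 by -0.64 in place of -0.71, and by edgeR's quasi-likelihood test these 4 had adjusted p of 0.0035, 9.27e-05, 7.49e-08 and 0.0038. The edgeR fit also had 1 residual degree of freedom, on UMIs summed per table and side. Its p-values, here and below, do not measure the spread between cells. Resp18 (adjusted p = 0.163) and Txnip (adjusted p = 0.322) did not pass in edgeR without the Pyy-rich cells. Pyy itself differed by 0.75 without them, and did not pass in edgeR (adjusted p = 0.999). Those cells were picked by their Pyy level, so this loss follows from the choice and is not read as a result. Leaving out the cells with the highest doublet scores on both sides kept all 18 genes past the threshold.

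Cells with 3 or more marker genes of endothelial, immune, stromal, Schwann, acinar or duct cells at 2 or more UMIs were left out on both sides, which left 6 negative cells in library 1 and 192 in the joint table. Then limma called 0 genes, with 102 at an unadjusted p under 0.05, and edgeR 2 higher and 0 lower. The difference of Igfbp7 turned to -0.28 and that of Chgb to -0.35. That of Pyy went to 1.61 (adjusted p = 0.811 in limma and 0.00845 in edgeR). Those of Cst3, Chga and Fxyd3 went to 0.30, 0.29 and 0.64. This cut counts UMIs, so a deep cell meets it more readily. Duct markers, part of the cut, were also present in typical cells of both sides. Their sum had a median of 3.97 CP10K in negative and 2.87 CP10K in matched cells of library 1. In the joint table the medians were 2.505 and 2.484 CP10K. Whether the loss of calls came from removing RNA of other cells was not tested.

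Among the beta cells with Ucn3, Mafa and other genes above varied with its level. In the joint table the mean Mafa level was 3.55 CP10K at a Ucn3 of 0, then 4.08, 4.37, 4.77 and 5.73 CP10K in cells with up to 1, 1 to 2, 2 to 4 and above 4 CP10K of Ucn3. In library 1 it was 1.76, 3.18, 3.46, 4.18 and 5.22 CP10K. Mafa was thus higher in each range than in the one before it in both tables, with the Ucn3-negative cells lowest.

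Slc2a2 went from 2.76 to 3.73 CP10K and mt-Co3 from 100.8 to 159.6 CP10K between the outer ranges of the joint table. Chga went down from 41.3 to 28.7 CP10K and Txnip from 1.73 to 0.878 CP10K. The share of Pyy-rich cells went down from 8.57% to 2.52%, 1.85%, 0.776% and 0.474%. For Chga the step from 0 to the first range, 41.3 to 31.8 CP10K, was larger than that over all later ranges. For mt-Co3 the first range was the lowest, at 98.5 CP10K against 100.8 CP10K at a Ucn3 of 0. The same order held in library 1, at 91.5 against 102.1 CP10K. The ranges were cut on the value that chose the cells and share no matching for depth, with median UMIs between 16830.5 and 23101, so this pattern is given as a description.

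**Figure D5:**
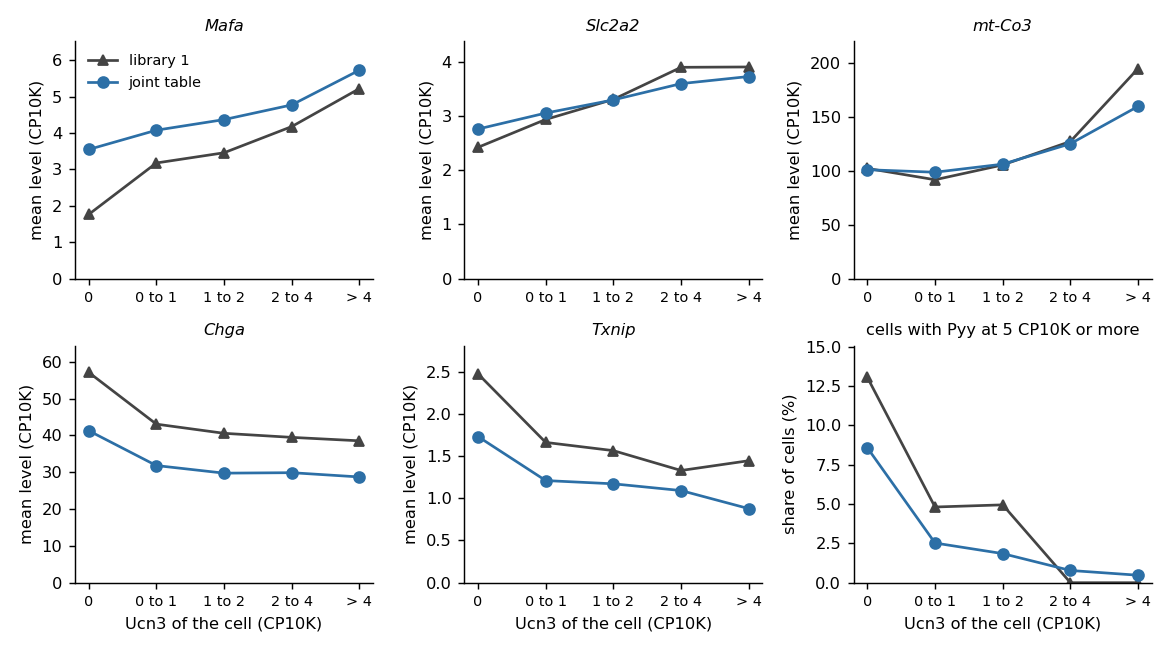
Mean level in CP10K of 5 genes, and share in percent of cells with Pyy at 5 CP10K or more, in beta cells by their own Ucn3 level (0, up to 1, 1 to 2, 2 to 4 and above 4 CP10K), for library 1 (triangles) and the joint table (circles). From the Ucn3-negative cells on the left to the highest range, Mafa goes from 3.55 to 5.73 CP10K and Chga from 41.3 to 28.7 CP10K in the joint table.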

How the data were processed

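The authors deposited raw counts (UMIs per gene) for replicate 1 and, for replicates 2 and 3, 1 joint table of natural log values, ln(1 + CP10K). Per the submitters' processing notes the tools were Cell Ranger 3.2.0 (replicate 1) and 5.0.0 (replicates 2 and 3), cutadapt 2.5, FastQC 0.11.8 and Seurat 4.0.0, with mm10. Whole UMIs were recovered for 100% of 35558086 nonzero values (within 0.001 of the count). Of 16050 columns, 3008 repeated others exactly and were dropped. Library totals were 27474046 and 196833349 UMIs. The 15741 genes in both tables were used.

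Members and gene lists were chosen with earlier results of these data known. The comparison used limma 3.58.1 (R 4.3.3) on columns centred on their median, over genes at 0.1 CP10K in at least 2 of the columns, with moderated variances and Benjamini-Hochberg adjustment. Ucn3, Ins1, Ins2, Gcg, Ppy and Sst were left untested, and the mitochondrially encoded genes, limited by the rule as a share, stayed in the fit and are described only. In counts simulated at a fixed low dispersion, with no spread between single cells, it was checked that the fit recovers known changes. That check does not cover means set by a few cells. Named genes were the 12 largest rises and falls past the threshold with 1 direction in all units and at least 0.5 CP10K in both tables, places being filled by genes that did not pass. Alternatives used edgeR 4.0.16 and DESeq2 1.42.0 on summed counts. Scrublet (scanpy 1.11.5) scored doublets in each block, and 6, 217, 54 and 106 cells (0.8% per 1000 cells) were marked, since its automatic limit called 5, 5, 33 and 0. Other cell kinds were cells under 1000 CP10K of insulin with 1000 CP10K or more of 1 other hormone, and non-endocrine cells those with 4 or more endothelial, immune or stromal marker genes detected. Positions are from GENCODE vM21.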

Additional observations from a re-analysis of the deposited data

How the results depend on the processing

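The share of beta cells without Ucn3 (7.10%) was 4.49% in cells of at least 20000 UMIs, 22.6% with each cell thinned to 10000 UMIs and 5.0% in library 1 alone, and 7.26% without replicate 1. The counts of genes that rose and fell (11 and 7) were 35 and 30 with a pseudocount of 0.5, 48 and 31 without a filter on low values, 4 and 7 with a filter at 1 CP10K, 21 and 14 without centring, 34 and 21 with hormone UMIs outside the total, 32 and 30 when matched on UMIs outside insulin, 50 and 58 with 3 positive cells per negative cell, 39 and 50 without matching, 7 and 10 after thinning, 18 and 17 in cells of at least 20000 UMIs, 32 and 19 against positive cells of at least 3 Ucn3 UMIs, 29 and 27 at a mitochondrial share of at most 10%, 32 and 28 with Gcg, Ppy and Sst each under 20 CP10K, and 35 and 32 without doublet scores. They were 0 and 0 without cells holding other markers (102 genes at an unadjusted p under 0.05, 2 and 0 in edgeR) and 0 and 0 without Pyy-rich cells (178 at an unadjusted p under 0.05, 22 and 10 in edgeR), an alternative chosen after seeing the data. They were 49 and 32 in edgeR with TMM, 49 and 34 with DESeq2's size factors, 2 and 1 in DESeq2 and 1 and 0 with no table block (149 at an unadjusted p under 0.05). Without block 1 they were 33 and 25, without block 2 2 and 3, and without block 3 33 and 29.

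Single genes kept their direction and side of the threshold in 467 tested cases, gained a call in 183, lost it in 115 and reversed in 4. With 1 table left out there was no test, and 67 values kept their direction and 1 reversed. Without cells holding other markers, Igfbp7 was at -0.28, Chgb at -0.35, Ero1lb at 0.012 and Trpm5 at 0.062. Rbp4 was at -0.15 in library 1 alone, where 1 matched cell held 10.4 CP10K, and 2.16 without replicate 1. The cause was not tested. No paired analysis was possible because the cells of replicates 2 and 3 carry no replicate number, beyond the pairing of both sides within each table in the reported fit. The columns of library 1 had medians 0.13 apart before centring. Depth limits low genes: library 1 has 23 Ucn3-negative cells.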
